A study of Mus musculus with 2 samples.

Results

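Open chromatin was examined at 10 genes that make, break down, sense or carry retinoic acid, out of 21853 protein-coding genes in the annotation. The genes were chosen by name and function, not by their values, though with earlier results of these data known. They are Aldh1a1, Aldh1a2 and Aldh1a3 (synthesis), Cyp26a1, Cyp26b1 and Cyp26c1 (breakdown), Rara, Rarb and Rarg (receptors) and Crabp2 (carrier). The data are DNase-seq of whole ovary from 2 female B6CASTF1/J mice aged 36 days, with no treatment named in the labels. The libraries share a donor entry but carry female numbers and biosample entries of their own, so each was read as 1 animal. B6CASTF1/J is the first-generation cross of C57BL/6J with the wild-derived CAST strain, so each animal carries a pair of parental genomes, which the deposited values do not separate. DNase I cuts DNA that is free of nucleosomes, so a pile of cuts, called as a peak, marks an open site, and a short protected stretch within it is called a footprint. Peaks were assigned to a gene when their centre lay in the gene or when its protein-coding start site was the nearest one.

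Retinoic acid is made from retinol in 2 oxidation steps, of which the Aldh1a enzymes carry out the last, and the Cyp26 enzymes hydroxylate it for removal. It binds the nuclear receptors Rara, Rarb and Rarg, which pair with RXR proteins on DNA at response elements, most typically direct repeats of a half-site with a spacer of 5 bases (DR5). In the fetal ovary retinoic acid is known for its part in the entry of germ cells into meiosis, and in the adult ovary its synthesis has been described in somatic cells.

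The longer deposited list held 109169 peaks in replicate 1 and 114462 in replicate 2, with 301406 and 294269 footprints. Peak values are those that the authors deposited, on a scale that the sources used here do not give, and they ran lower in replicate 2. The log2 ratio of replicate 2 to replicate 1 had a median of -0.77 (SD 0.43, n = 19993) over shared sites within 500 bp of a coding start site and of -0.31 (SD 0.46, n = 59454) over the other shared sites. Ratios below are given relative to these medians. Of the marker genes of the tissue, 7 of 8 granulosa genes, 5 of 7 theca and interstitial genes, 5 of 6 stroma, 4 of 7 surface epithelium, 3 of 5 endothelium and 1 of 6 oocyte genes had a promoter peak in both animals. So had 4 of 4 oviduct genes, 0 of 4 liver genes and 65.6% of all coding genes. The oviduct genes Rsph1 (22.9 in replicate 1 and 14.2 in replicate 2) and Foxj1 (11.8 and 7.13) had the highest promoter values of all these markers. The other oviduct genes, Pax8 (1.26 and 0.975) and Ovgp1 (0.469 and 0.504), had low ones. The part of oviduct cells in the values below was not tested. In a whole tissue, an open site in few cells and a weakly open site in many cells cannot be told apart. With 1 group of 2 animals there is no test, and values are given for each replicate with their mean and SD.

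Most of the 10 promoters were open, and Rarg alone had a mean promoter value above 5.17, the median of genes open in both animals. That Rarg value rests on an intronic peak of which only the near edge came within 500 bp of a start site. The next strongest Rarg site near a start site had 2.65 in replicate 1 and 1.71 in replicate 2. A peak lay within 500 bp of a coding start site in both animals at 7 of the 10 genes (70%), against 65.6% of all coding genes. At 2 genes the peak was called in 1 animal alone, Crabp2 in replicate 1 and Cyp26a1 in replicate 2, a state found at 3.53% of all genes. Cyp26c1 had no promoter peak in either animal, as did 30.9% of all genes. The median open gene had a promoter value of 6.71 in replicate 1 and 3.61 in replicate 2. Rara lay on either side of it, with 6.81 and 3.02. Rarg lay at the 70.8 percentile of open genes by mean promoter value and Rara at 47.9, whereas Aldh1a1, Aldh1a2, Aldh1a3, Cyp26b1 and Rarb lay between 15.0 and 26.8.

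**Figure D1:**
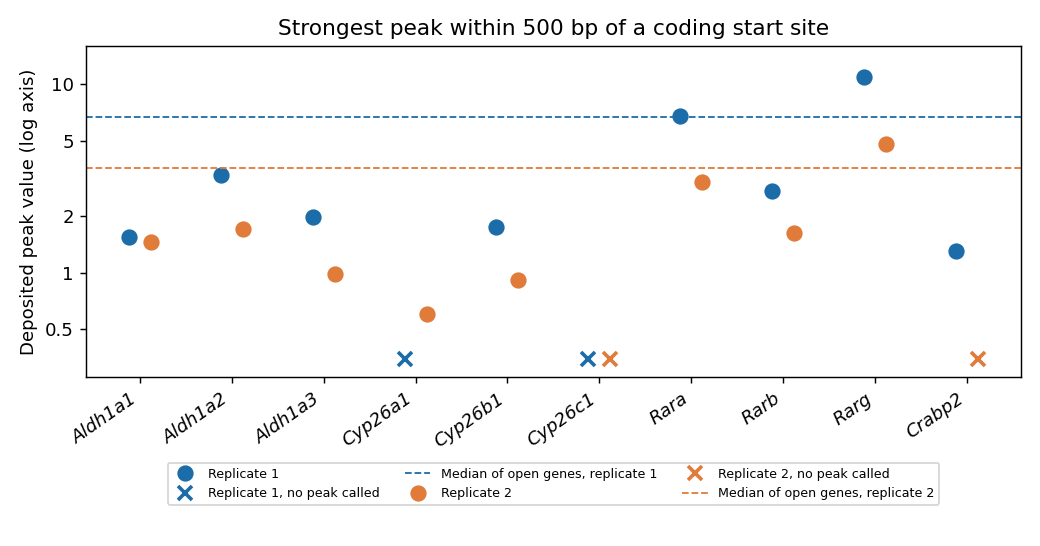
The deposited value of the strongest peak within 500 bp of a coding start site (vertical log axis, in the units of the deposited values) is plotted for each gene, with 1 point per animal. Crosses at the bottom mark genes with no such peak, dashed lines mark the median of genes open in both animals. Rarg is above both lines, by a peak of which only the edge lies within 500 bp, and Cyp26c1 has no peak in either animal.

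The genes drew 149 assigned peaks in replicate 1 and 128 in replicate 2, and Rara accounted for the excess in replicate 1. Without Rara the counts were 94 and 107. Of the assigned peaks, 61.1% in replicate 1 overlapped a peak of replicate 2 (75.5% of all peaks did). Rara lowered this share, with 20 of its 55 peaks overlapping one. In replicate 2, 70.3% of the assigned peaks overlapped one of replicate 1 (71.5% of all peaks). These made 85 one-to-one shared sites, of which 68 had the lower value in replicate 2, and 19 of the 85 lay within 500 bp of a coding start site. Over the genome the value was lower in replicate 2 at 93.6% of shared sites near a coding start site and 74.4% of the others. The median relative log2 ratio was -0.06. The peaks without a partner were the weaker ones, with median values of 0.56 in replicate 1 and 0.38 in replicate 2 against 1.22 and 0.89 for those with a partner. At least 10 peaks were assigned to 5 of the 10 genes in replicate 1 and to 6 in replicate 2, against 17.2% and 18.2% of all coding genes. The stretch of genome nearer to a gene's start sites than to any other's differs widely among them, from 20.3 kb at Crabp2 to 745 kb at Rarb, with a median of 46.3 kb over all coding genes.

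**Figure D2:**
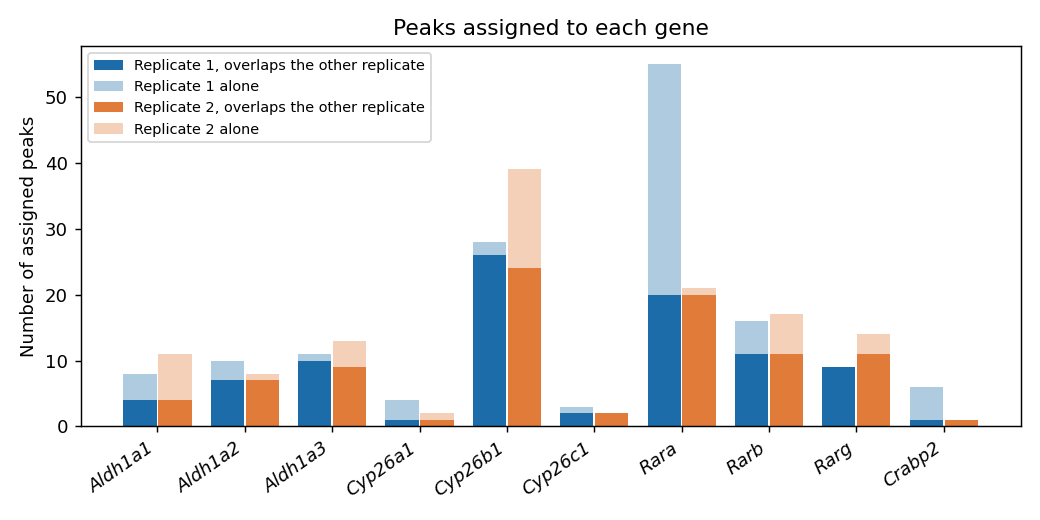
The number of assigned peaks (vertical axis, from 0) is shown for each gene and animal, blue for replicate 1 and orange for replicate 2. The solid part overlaps a peak of the other animal and the pale part does not. Rara has 55 peaks in replicate 1, of which 35 have no partner, and Cyp26b1 has 39 in replicate 2, of which 15 have none.

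Among the synthesis genes, all 3 had promoter peaks in both animals, and Aldh1a2 had the highest value. Aldh1a2, an oxidase of retinaldehyde that is essential in the embryo, lies at chr9:71215789-71296243 on the plus strand. Its strongest site, chr9:71215261-71215460, lies 0.428 kb upstream of the only coding start site and had values of 3.32 and 1.71 (2.52 ± 1.14, SD, n = 2). The peak had the same bounds in both animals, and the lowest q-value listed within it, a false discovery rate per base, was 2.26e-31 in replicate 1 and 1.43e-22 in replicate 2. A second site over a coding exon, 0.092 kb downstream of the start, had 2.21 and 1.11, and a site 60.5 kb downstream in an intron had 0.515 and 0.471. The sequence of the strongest site is shown because 47 of its 200 bases lay in a footprint in both animals. Capitals mark those bases, here and in the longer sequences below, all read from GRCm38 on the plus strand. Neither these sequences nor the motif matches below were compared with the CAST genome.
Aldh1a2 promoter site, chr9:71215261-71215460: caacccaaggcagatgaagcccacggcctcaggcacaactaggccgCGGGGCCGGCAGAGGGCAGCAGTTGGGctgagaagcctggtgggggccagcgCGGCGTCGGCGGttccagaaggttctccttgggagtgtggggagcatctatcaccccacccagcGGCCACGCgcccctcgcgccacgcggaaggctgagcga

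Aldh1a1 at chr19:20492715-20643465 encodes a retinaldehyde oxidase of many adult epithelia. Its start site inside the locus had a peak of 1.54 in replicate 1 and 1.46 in replicate 2 (1.5 ± 0.0596, SD, n = 2), over the 5′ UTR. Its most upstream start site had weaker peaks, the nearest of them, chr19:20492541-20492800, with 0.658 and 1.01. All 4 shared sites of the gene had a relative log2 ratio above 0, with a median of 1.04 and the highest, 1.85, at chr19:20492001-20492220 (0.482 and 1.02). Relative to shared sites of the same class of GC content (20% classes) the median was 0.38, with 3 of 4 above 0, and relative to those of the same class of mean value (10% classes) it was 0.65, with all 4 above 0. The gene had 8 peaks in replicate 1 and 11 in replicate 2, and the 4 and 7 peaks without a partner reached no more than 0.43 and 0.425.

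Aldh1a3 at chr7:66390890-66427517, on the minus strand, is the third retinaldehyde oxidase. Its most upstream start site had a peak of 1.97 in replicate 1 and 0.988 in replicate 2 (1.48 ± 0.692, SD, n = 2), and an internal start site over a coding exon had 1.5 and 0.654. The other 2 annotated start sites had no peak and no base with a listed q-value in either animal. Its strongest site by mean lay outside the promoter, 7.31 kb upstream at chr7:66434741-66434940, with 1.51 and 1.56 (1.53 ± 0.0329). The deposited values of the animals were nearly equal there, whereas the promoter was lower in replicate 2, as most sites near start sites were. The relative log2 ratio was 0.35 at the upstream site and -0.22 at the promoter. Relative to shared sites of the same class of GC content these were 0.06 and -0.10. Further upstream lay sites at 22.7 kb (1.22 and 0.916), 65.4 kb (0.808 and 0.661) and 102 kb (0.762 and 0.70). The upstream site is printed because a block of it was in a footprint in both animals.
Aldh1a3 upstream site, chr7:66434741-66434920: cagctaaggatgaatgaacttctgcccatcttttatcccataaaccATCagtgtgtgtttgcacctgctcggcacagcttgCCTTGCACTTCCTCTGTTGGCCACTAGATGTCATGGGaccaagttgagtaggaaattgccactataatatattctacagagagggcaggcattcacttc

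The breakdown genes had weak or no peaks at their most upstream start sites, while strong sites lay elsewhere in or near 2 of them. Cyp26b1, the retinoic acid hydroxylase known for shielding germ cells of the fetal testis, lies at chr6:84571414-84593908 on the minus strand. Its 2 most upstream coding start sites had no peak and no base with a listed q-value in either animal. The promoter call came from internal start sites, with 1.75 in replicate 1 and 0.91 in replicate 2 (1.33 ± 0.596, SD, n = 2). This peak had a high q-value for its size: 99.5% of replicate 1 peaks and 94% of replicate 2 peaks of like value (within 10%) had a lower one. Introns held the strongest sites. One, chr6:84583441-84583660, had 5.31 and 2.44 (3.87 ± 2.03), and the other, chr6:84590381-84590560, had 4.77 and 3.70 (4.24 ± 0.761). The relative log2 ratio was -0.82 at the first and -0.06 at the second, and -0.22 and 0.19 relative to shared sites of the same class of GC content.
Cyp26b1 intronic site, chr6:84590401-84590560: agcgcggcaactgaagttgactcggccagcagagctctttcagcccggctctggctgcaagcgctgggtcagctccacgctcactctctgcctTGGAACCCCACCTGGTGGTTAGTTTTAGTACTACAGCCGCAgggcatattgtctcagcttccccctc
Cyp26b1 intronic site, chr6:84583441-84583640: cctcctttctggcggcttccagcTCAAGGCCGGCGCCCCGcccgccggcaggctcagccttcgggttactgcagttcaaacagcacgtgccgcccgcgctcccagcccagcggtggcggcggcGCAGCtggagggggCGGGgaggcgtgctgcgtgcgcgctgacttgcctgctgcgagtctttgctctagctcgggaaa

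In the first of these sequences 41 of 160 bases lay in a footprint in both animals, as 1 unbroken block, and in the second 26 of 200. The Cyp26b1 locus also had many sites far from the gene. It had 28 peaks in replicate 1 and 39 in replicate 2, and 1.96% and 0.714% of coding genes had as many. Of these peaks, 6 and 9 were centred in Cyp26b1, and 8 and 13 within the neighbouring gene Exoc6b. The stretch of 528 kb assigned to Cyp26b1 is long, and 23 sites were shared. The strongest distant site lay 202 kb downstream in intergenic sequence at chr6:84385721-84386060, with 3.11 and 1.83. Exact matches to the motif of CTCF, a protein that holds chromatin loops, lay under footprints of both animals at 3 downstream sites, which are shown for that reason with their strand.
CTCF match, chr6:84317305-84317316, minus strand, 270 kb downstream (values 0.541 and 0.622): CCACCAGGGGGC
CTCF match, chr6:84375684-84375695, plus strand, 212 kb downstream (values 1.58 and 1.13): CCACTAGGTGGC
CTCF match, chr6:84408006-84408017, plus strand, 180 kb downstream (values 0.912 and 1.09): CCAGCAGGTGGC

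Footprints covered all 12 bases of the last 2 matches in both animals. At the first they covered 11 in replicate 1 and 12 in replicate 2. When 1 mismatch was allowed, 12 matches near 6 of the 10 genes had a footprint over at least 6 bases in both animals, and 6 of them were at Cyp26b1. This setting was chosen after the sequences had been seen. Such matches were in 8.72% of the assigned peaks of replicate 1 and 10.2% of those of replicate 2, against 12% and 12.1% of all peaks, a lower share than among all peaks.

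Cyp26a1, the hydroxylase that retinoic acid itself is known to switch on in many cells, lies at chr19:37697798-37701536 on the plus strand. Its promoter had a peak in replicate 2 alone, at 0.602 with a lowest q-value of 0.00564. In replicate 1 only 3 bases within 500 bp of the start site had a listed q-value, the lowest being 0.0465. The single shared site, chr19:37704021-37704200, lay 6.31 kb downstream of the start site, beyond the end of the gene, and was stronger, with 2.12 and 1.82 (1.97 ± 0.210, SD, n = 2). Its bounds were equal in both animals, and 49 of its 180 bases lay in a footprint in both.
Cyp26a1 downstream site, chr19:37704021-37704200: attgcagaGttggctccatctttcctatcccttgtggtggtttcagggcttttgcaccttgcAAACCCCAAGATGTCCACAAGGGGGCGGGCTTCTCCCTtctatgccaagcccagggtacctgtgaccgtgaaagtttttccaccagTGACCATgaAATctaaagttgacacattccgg

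Cyp26c1, the third hydroxylase, adjoins Cyp26a1 at chr19:37685581-37693398. It had no peak at its start site and no base with a listed q-value there in either animal. Every one of its peaks, 3 in replicate 1 and 2 in replicate 2, had its centre in a coding exon. The stronger shared one, 5.39 kb downstream of the start, had 1.2 and 0.654, and the other had 0.808 and 0.484. A peak of 0.821 in replicate 1 in a coding exon of Cyp26c1 was nearest to the start site of Cyp26a1 and was counted at both genes.

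Rarg and Rara held the highest values of the set. Rarg at chr15:102234938-102257517, on the minus strand, had the strongest site of all 10 genes, chr15:102246981-102247240 in an intron. Its values were 10.9 in replicate 1 and 4.85 in replicate 2 (7.87 ± 4.27, SD, n = 2). The centre of this site lay 0.611 kb upstream of an internal start site, and only its near edge came within 500 bp of it. The most upstream start site of Rarg was weaker, with 1.99 and 1.38. Next to the strongest site lay chr15:102247321-102248180, with 3.99 and 2.24, and a coding exon 4.19 kb downstream of the nearest start site had 4 and 2. One intronic site, chr15:102244781-102244960, differed more between the animals than the others, with 2.36 and 0.524 and a relative log2 ratio of -1.87 (-1.28 relative to the same class of GC content). The peaks compared there were unlike in width, 180 bp in replicate 1 and 66 bp in replicate 2. Replicate 2 had a further peak close by, chr15:102244981-102245264, with 0.772. All 9 peaks of replicate 1 had a partner in replicate 2, and all 9 held a footprint.
Rarg intronic site, chr15:102246981-102247140: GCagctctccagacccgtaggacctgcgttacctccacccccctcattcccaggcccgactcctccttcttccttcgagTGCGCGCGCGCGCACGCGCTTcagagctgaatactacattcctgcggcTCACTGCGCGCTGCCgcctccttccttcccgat

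In this sequence 38 of 160 bases lay in a footprint in both animals, including a run of alternating bases. Rara at chr11:98927818-98974942, on the plus strand, encodes the most widely expressed of the receptors. Its second start site had a peak of 6.81 in replicate 1 and 3.02 in replicate 2 (4.92 ± 2.68, SD, n = 2). The most downstream start site had 4.48 and 2.53, and the most upstream one had 0.879 and 0.903. Introns held further strong sites away from the start sites. The strongest, chr11:98951361-98951920, had 7.74 and 4.06 (5.90 ± 2.60) and held 7 and 8 footprints. It was followed by chr11:98966701-98966960 with 6 and 3.88 and chr11:98959521-98959740 with 5.26 and 2.88. The middle 300 bases of the strongest site are shown, with 46 bases in footprints of both animals.
Rara intronic site, chr11:98951481-98951780: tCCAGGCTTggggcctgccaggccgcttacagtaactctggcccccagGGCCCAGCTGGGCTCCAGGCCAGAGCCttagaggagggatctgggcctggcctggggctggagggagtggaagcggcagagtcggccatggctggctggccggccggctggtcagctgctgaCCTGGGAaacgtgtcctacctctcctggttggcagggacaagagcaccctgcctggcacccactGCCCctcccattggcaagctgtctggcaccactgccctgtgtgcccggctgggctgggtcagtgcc

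The animals differed at Rara in the number of peaks more than in the strong sites. Replicate 1 had 55 peaks and replicate 2 had 21, and of all 21853 coding genes 8, Rara included, had an excess of 34 or more in replicate 1. Of the 55 peaks, 35 had no partner. Their values ran up to 2.85, and 15 of them lay below 0.602, the weakest peak called at Rara in replicate 2. At 30 of the 35 no base had a listed q-value in replicate 2. Among the other 5, chr11:98954781-98955060 had one at all 280 bases (lowest 1.76e-10) and chr11:98955061-98955260 at all 200 (lowest 4.37e-06), though no peak was called there. The rest had 24 to 35 listed bases each. Within 500 kb to either side of Rara, outside its own peaks, the counts were close, with 129 peaks in replicate 1 and 134 in replicate 2, called down to 0.221 and 0.209.

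Peaks of Rara in replicate 2 also had high q-values for their size. At the second start site the lowest q-value was 8.76e-96 in replicate 1 but 1.01e-06 in replicate 2, where 99.9% of peaks of like value had a lower one (3.3% in replicate 1). Over all its peaks, the median share of peaks of like value with a lower q-value was 91.4% in replicate 2 and 28.5% in replicate 1. High medians were also found at other genes. That of Rarg was 95.6% in replicate 1 and 75.8% in replicate 2, that of Cyp26c1 was 78.1% and 80.1%, and the single Crabp2 peak of replicate 2 stood at 99.1%. How the authors set the background rate behind the q-values is not stated in the sources used here.

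**Figure D3:**
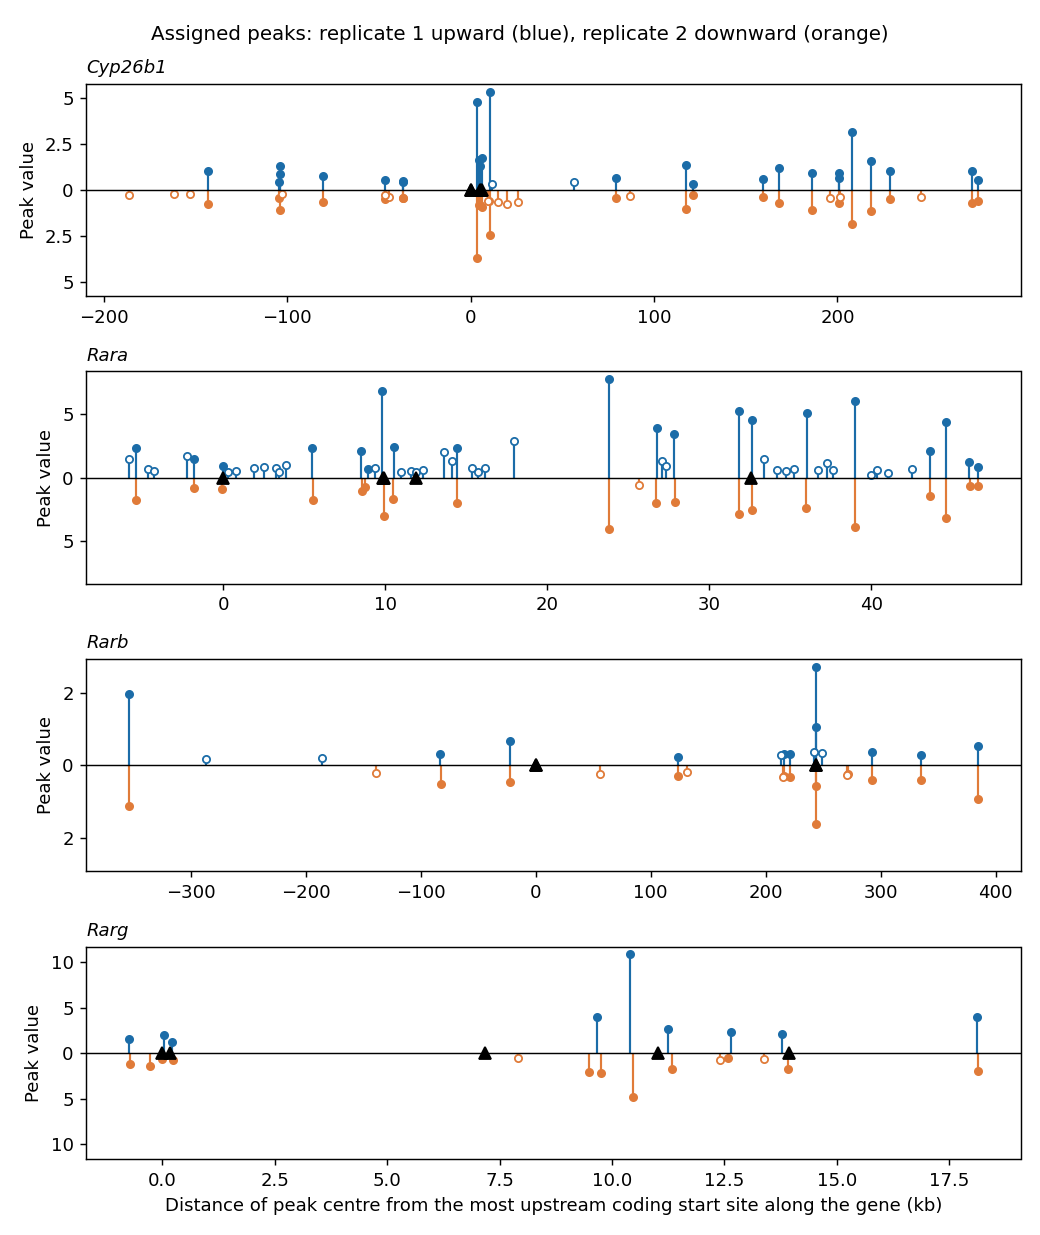
Peak value (vertical axis) is plotted against the distance in kb of each peak centre from the most upstream coding start site for Cyp26b1, Rara, Rarb and Rarg, with replicate 1 upward in blue and replicate 2 downward in orange. Triangles are coding start sites and open circles are peaks without a partner in the other animal. Open circles are dense at Rara in replicate 1, and no line stands at the first triangle of Rarb.

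**Figure D4:**
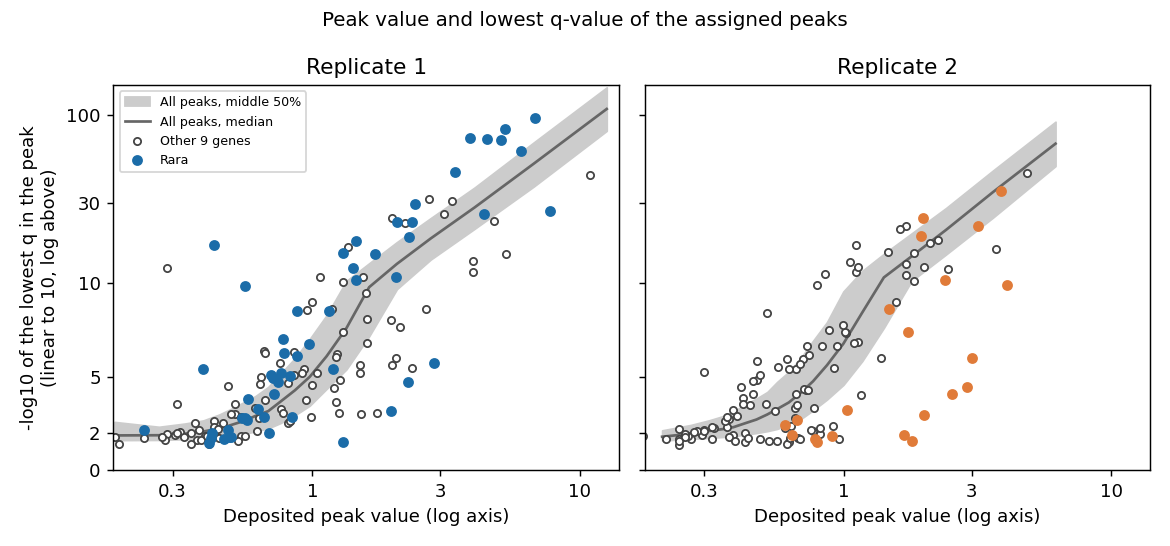
Minus log10 of the lowest q-value in each assigned peak (vertical axis, linear to 10 and logarithmic above) is plotted against the peak value (log axis) for each animal. Filled points are Rara, open points the other 9 genes, the line is the median of all peaks and the band their middle 50%. Most points of Rara lie below the line in replicate 2, and their median share of peaks of like value with a lower q-value was 91.4%, against 28.5% in replicate 1.

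Rarb, the receptor gene best known as a target of retinoic acid, lies at chr14:16430839-16819156 on the minus strand. It was open at its downstream promoter alone. At the 2 far start sites no peak was called, and 3 bases had a listed q-value in replicate 1 (lowest 0.0432) and none in replicate 2. At the downstream start sites the strongest peak had 2.72 in replicate 1 and 1.62 in replicate 2 (2.17 ± 0.782, SD, n = 2), with lowest q-values of 4.29e-32 and 8.97e-22. The next strongest site lay 354 kb upstream of the far start sites at chr14:17172821-17173040, with 1.98 and 1.13, and held an exact GC box, GGGGCGGGG, whose 9 bases were under footprints in both animals. Of the 10 shared sites, 8 had a relative log2 ratio above 0, with a median of 0.44 (0.30 with 8 above 0 relative to the same class of GC content, and 0.24 with 7 relative to the same class of mean value). Most other sites were weak, and the median peak value was 0.322 in replicate 1 and 0.327 in replicate 2.

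Crabp2 at chr3:87948666-87953376 encodes the carrier that hands retinoic acid to its receptors. It had 6 peaks in replicate 1 and 1 in replicate 2. The promoter peak of 1.3 in replicate 1, with a lowest q-value of 4.23e-08, had no peak to match it in replicate 2, where 47 bases had a listed q-value, the lowest 0.0325. Among genes without a promoter peak, 2.72% had such a listed base in replicate 2. The single shared site, chr3:87955168-87955392, lay 6.62 kb downstream of the start, with 0.775 and 0.955 (0.865 ± 0.128, SD, n = 2).

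**Figure D5:**
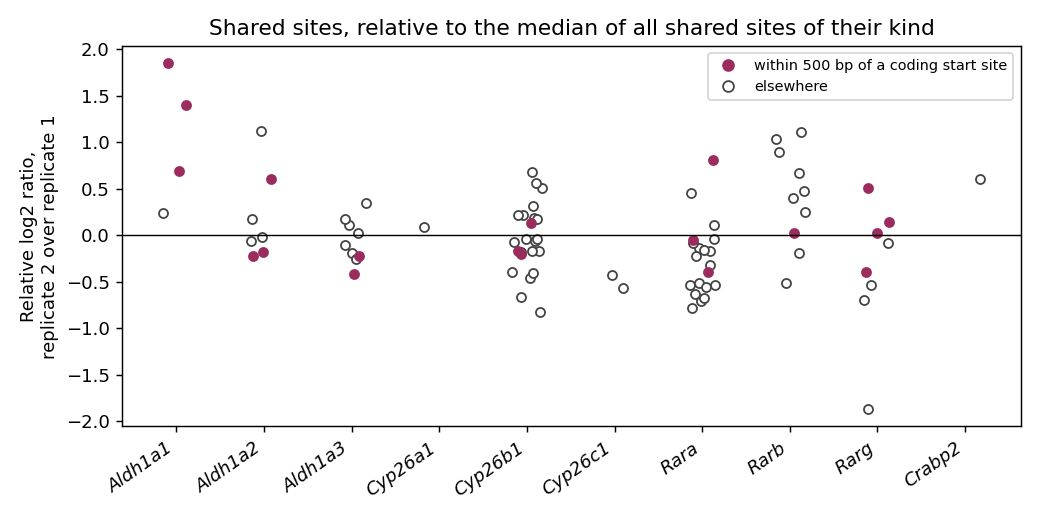
The log2 ratio of replicate 2 to replicate 1 at each shared site, relative to the median of all shared sites of its kind (vertical axis), is plotted by gene. Filled points lie within 500 bp of a coding start site and open points elsewhere. All 4 points of Aldh1a1 are above 0, and 17 of the 20 points of Rara are below 0. The points of Rara below 0 number 9 of 20 relative to shared sites of the same class of GC content and 10 of 20 relative to those of the same class of mean value, which are not plotted.

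Response elements were sought as exact DR5 repeats, that is a pair of half-sites on the same strand with 5 bases between them, on both strands. The half-site was AGGTCA, with G also allowed as the first letter and T also allowed as the third. An exact DR5 lay within 2000 bp of a coding start site at 4 of the 10 genes, against 1.93% of all coding genes. The genes are not a neutral sample for this motif, as Rarb and Cyp26a1 are known targets of retinoic acid. The share is also per gene, whatever its number of start sites. Rara and Rarg had 5 coding start sites, Rarb 4 and Cyp26a1 1, whereas Cyp26b1, with 5, had no exact match. The 5 elements are shown because they are all the exact matches found within that reach at the 10 genes. Each is written on the strand of its gene, with the half-sites in capitals.
Rarb, chr14:16575513-16575529: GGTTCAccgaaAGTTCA
Cyp26a1 near element, chr19:37697776-37697792: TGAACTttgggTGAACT
Cyp26a1 far element, chr19:37695909-37695925: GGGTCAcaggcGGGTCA
Rara, chr11:98960008-98960024: AGTTCAgcaagAGTTCA
Rarg, chr15:102250817-102250833: GGTTCAaagtgAGGTCA

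The Rarb element was the only one of the 5 inside a peak, and in replicate 2 alone. Of all 424 exact elements within that reach of coding start sites, 3.3% lay inside a peak in replicate 1 and 4.25% in replicate 2. It lay 14 to 30 bases downstream of the last GENCODE start site, in the peak chr14:16575421-16575760, and a footprint at chr14:16575520-16575535 covered 10 of its 17 bases. In replicate 1 it fell into a gap between the peaks chr14:16575181-16575480 (value 1.07) and chr14:16575561-16575660 (2.72), 31 bases from the nearer, with no footprint over it. The bases of the element were nonetheless open in replicate 1 by the deposited q-values, since all 17 had a listed one, down to 4.13e-14 (4.14e-18 in replicate 2). The near Cyp26a1 element lay 22 to 6 bases upstream of the start site and overlapped the edge of the peak of replicate 2, where 3 of its bases had a listed q-value (lowest 0.0475), and none did in replicate 1. At the Rara element all 17 bases had a listed q-value in replicate 1 (lowest 1.89e-12), though no peak was called over it, and none in replicate 2. The far Cyp26a1 element and the Rarg element had no listed base in either animal.

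RefSeq promoters of 300 bases (GRCm38.p6) were found for 8 of the 10 genes. Those of Rarb and Cyp26a1 held an exact DR5, as did 0.0974% of all such promoters. Relative to the RefSeq start sites, the Rarb element lay upstream at -53 to -37 and the Cyp26a1 element at -32 to -16. Among all assigned peaks, an exact DR5 was in 0 of 149 in replicate 1 and 1 of 128 in replicate 2, against 0.104% and 0.114% of all peaks. No exact repeat with a spacer of 2 bases or of 1 base was found in them. With 1 mismatch allowed, DR5 repeats were in 9 assigned peaks of replicate 1 (6.04%, against 1.42% of all peaks) and 8 of replicate 2 (6.25%, against 1.59%). Of these 13 elements, 9 lay in peaks assigned to Cyp26b1 by the nearest start site. Most of the 9 lay far upstream of Cyp26b1, within the gene Exoc6b. One, 104 kb upstream of Cyp26b1 within the gene Exoc6b, is shown because it alone had footprints over it in both animals, covering 15 and 11 of its 17 bases.
Cyp26b1 distant element, chr6:84697564-84697580, plus strand: AGGTCAccgagAGGTGA

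The mismatch is at position 16, counted from the first base shown. The peak over this element had a value of 1.3 in replicate 1 and 1.11 in replicate 2. A GATA motif, AGATAA on either strand, was in 12.8% of the assigned peaks of replicate 1 and 15.6% of replicate 2, against 6% and 8.02% of all peaks. No GATA match had more than 4 bases under a footprint in replicate 1 or more than 3 in replicate 2. Among motifs of other factors scanned alike, the GC box was also higher in both animals (8.72% and 7.81%, against 5.7% and 5.03%). So was the CRE motif (1.34% and 1.56%, against 0.755% and 0.76%). The exact CTCF motif was lower in both (2.68% and 3.91%, against 4.75% and 5.06%). The AP-1, forkhead and NR5A motifs were higher in 1 animal and lower in the other. Footprints lay in 79.9% of assigned peaks in replicate 1 and 79.7% in replicate 2, against 81.2% and 78% of all peaks. Of the 226 footprints of replicate 1 in shared sites of these genes, 92 overlapped a footprint of replicate 2 (40.7%), and over all shared sites of the genome the share was 52.1%.

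Among the other genes of the pathway, all 13 listed receptor partners and coregulators were open. So were 9 of 15 listed genes of retinol supply and 7 of 10 that respond to retinoic acid. Over 3 lists of 38 genes, 29 (76.3%) had a promoter peak in both animals, against 65.6% of all coding genes. Of the open genes of retinol supply and storage, the highest were Rdh5 (13.4 in replicate 1 and 6.92 in replicate 2) and Rdh10 (4.53 and 2.21), which oxidise retinol, Adh5 (8.97 and 4.57), an alcohol dehydrogenase, and Dhrs3 (5.15 and 2.49), which turns retinaldehyde back to retinol. The retinol-binding protein gene Rbp2, the retinol importer Stra6, the carotene-cleaving enzyme Bco1, the alcohol dehydrogenase Adh7 and the plasma carrier Ttr had no promoter peak in either animal. Stra6 still had 12 assigned peaks in replicate 1 and 10 in replicate 2.

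All 13 genes of receptor partners and coregulators had a promoter peak in both animals. The highest were Rxrb, a partner of the receptors, with 21 and 9.12, the coactivators Ncoa2 with 19 and 9.44 and Ncoa3 with 10.2 and 4.05, and the nuclear receptor Ppard with 18.1 and 7.12. The median promoter mean of this list was 5.33, close to the 5.17 of all open genes. Its promoter values ran down to 0.449 in replicate 1 and 0.34 in replicate 2. Of the genes known to respond to retinoic acid in germ cells or embryo, 7 of 10 were open, led by Dusp6 (8.03 and 5.48), a phosphatase of the MAP kinase pathway, Tgm2 (7.08 and 4.03), a transglutaminase, and the transcription factors Meis1 (6.53 and 4.22) and Zbtb16 (5.2 and 2.84). Stra8, the meiotic entry gene, and the transcription factors Hoxb1 and Cdx1 had no promoter peak in either animal.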

How the data were processed

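DNase-seq peaks, footprints and false discovery rates of 2 ovary libraries were deposited by the authors on mm10, per the labels. The sources used here do not say how reads were aligned or how peaks, footprints and rates were called. The value of a peak is the signal that the authors deposited with it, with no statement of its scaling. The q-values per base were deposited only up to 0.05. Footprints carry a deposited score that is the same in every line, so their positions alone were used. The longer of the 2 deposited peak lists per library was the main one.

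Peaks were joined to GENCODE vM21 start sites of protein-coding transcripts and to the GRCm38 sequence in Python 3.11.15 (numpy 2.4.6, pandas 2.3.3). A peak was shared if any base of it lay in a peak of the other library (minimum overlap 1 base). Each site of the pair comparison joins the peaks that overlap each other longest. A footprint was counted for a peak when it lay fully inside it. At motif matches and printed sequences, any footprint over the bases was used, also one running past the edge of a peak. The overlap, promoter and motif code was tested on simulated data. All 10 genes were named. Of each other list, up to 4 genes with the highest promoter mean and up to 4 without a promoter peak were to be named, and the other 2 without one in the retinol list were added. One item that the rule names is left out. For each gene the promoter site, up to 3 other strongest shared sites and peaks with a DR5 were described. Other sites, the CTCF matches and the elements near start sites were chosen after their values were seen. The genes and lists were chosen with earlier results of these data known. Depth in reads is not stated, so no counting interval is given. The number of animals sets the precision. Alternatives were the shorter list, a wider promoter, other start sites, assignments and overlaps, ratios set against shared sites of the same class of mean value or GC content, and each animal alone.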

Additional observations from a re-analysis of the deposited data

How the results depend on the processing

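The count of promoters open in both animals was 7, and it stayed between 5 (most upstream start site alone) and 8 under the alternatives run, with 6 in the shorter deposited list, where Cyp26b1 was lost. Either animal alone gave 8. The mean of 138.5 assigned peaks per animal fell to 80.5 in the shorter list and to 80 with peaks centred in the gene alone, and was 128 without replicate 1 and 149 without replicate 2. The 85 shared sites became 50 in the shorter list and 45 with peaks centred in the gene alone, since fewer peaks enter. The median of the site means, 1.01, was 1.54 in the shorter list, which leaves out weak peaks. Peaks with a DR5 rose from 1 to 17 over the 2 animals when 1 mismatch was allowed. Footprints numbered 244 without replicate 1 and 321 without replicate 2. The median relative ratio of -0.06 lay between -0.05 and 0.07 under 3 other settings, all within its spread, and its sign turned relative to sites of the same GC content. So did the medians of Rara, from -0.27 to 0.07, Rarg, from -0.24 to 0.11, and Aldh1a2, from -0.02 to 0.07, all within the spread of each gene's sites, and those of Cyp26c1 (2 sites), from -0.50 to 0.09, and Cyp26a1 (1 site), from 0.09 to -0.02. Leaving out Rara, counting start sites of every transcript and the CTCF setting were chosen after seeing the data. No paired analysis was possible because there is 1 group. A scale of unknown depth limits all values, and no difference between the animals was tested.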
